A study of Mus musculus with 6 samples.

Results

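The mitochondrial ribosomal protein genes are the nuclear genes for the proteins of the ribosome inside mitochondria. They were taken here as the protein-coding genes of the count table whose GRCm38 symbol begins with Mrpl or Mrps followed by a digit. There were 76 such genes among the 16627 of the table: 47 of the large subunit (Mrpl) and 29 of the small subunit (Mrps). The annotation holds 78 protein-coding genes of this name pattern, and Mrpl33 and Mrpl53 were not analysed here. All 76 passed the filter on low counts, with no fewer than 565 counts in any library.

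The data are RNA sequencing of inguinal white adipose tissue (iWAT), the fat pad under the skin of the groin in mice, and the series asked what Celf1 does in its beiging. Every animal was kept at 4 °C for 6 hours. The 3 Celf1 AKO libraries came from animals labelled as lacking Celf1, the gene of an RNA-binding protein, in adipocytes, and the 3 Flox control libraries from littermates labelled Flox, with Celf1fl/fl in the title of the series. No source used here gives the Cre driver, strain, age or sex. Nothing in the labels says that each library is a different mouse, so the p-values below measure the spread between libraries, which may in part be technical. No group without cold exposure was analysed here, so the response to cold itself was not measured. Below, knockout libraries are those of Celf1 AKO and controls those of Flox control, with values in the order of replicates 1 to 3.

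Mitochondria translate only the few mRNAs of their own genome, all of which encode membrane subunits of the respiratory chain and ATP synthase. The mitochondrial ribosome that does this is built from rRNAs made inside the organelle and from proteins made in the cytosol and imported. The small subunit holds the mRNA and the decoding site, and the large subunit holds the site of peptide bond formation and the exit tunnel, which lies against the inner membrane. Brown and beige adipocytes are rich in mitochondria and make heat through the uncoupling protein Ucp1.

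Library totals ran from 54835348 to 64979443 counts, and the least abundant library value of a member was 9.68 CPM (counts scaled to a common library total with edgeR's normalization factors; 1 CPM was 54.9 to 67.8 counts). The knockout libraries gave 52.5, 49.8 and 63.0 CPM for Celf1 and the controls 126, 114 and 144 CPM, without overlap, in tissue that also holds cells other than adipocytes. The adipocyte markers Adipoq, Plin1 and Fabp4 were abundant in every library, the lowest value being 1465 CPM for Plin1. For Ucp1 the knockout libraries gave 79.6, 4.86 and 34.0 CPM and the controls 461, 567 and 495 CPM. All 5 brown or beige adipocyte markers were lower without overlap, with a summed level of 78.7 to 219 CPM in the knockout and 738 to 857 CPM in the controls. Schwann cell markers, 6 of 6 higher without overlap, summed to 262 to 493 CPM against 179 to 210.5 CPM, and endothelial markers, 4 of 5 higher without overlap, to 857 to 1034 CPM against 455 to 698 CPM. Celf1 AKO replicate 3 stood apart in the muscle actin gene Acta1, at 1039 CPM against 23.1 to 75.2 CPM elsewhere, and in 5 neutrophil markers, which summed to 108 CPM against 3.20 to 24.9 CPM. Its 4 erythrocyte markers summed to 1059 CPM against 295 to 503 CPM. The part of these cell types in the members' values was not tested.

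Most members were somewhat lower in Celf1 AKO, and none passed the test over all genes. Of the large subunit genes 42 of 47 had a negative log2 fold change, and of the small subunit genes 27 of 29, where 52.5% of all 16366 genes tested were negative. The median log2 fold change was -0.23 for the large subunit and -0.18 for the small subunit, beside -0.02 over all genes tested. The median member was thus at 85.4% of its control level in the large subunit and at 88.0% in the small subunit. Fold changes reached from 57.9% of control (Mrpl47) to 107% (Mrpl27 and Mrpl41) in the large subunit and from 59.1% (Mrps2) to 112% (Mrps6) in the small subunit.

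In 23 large and 13 small subunit genes all 3 Celf1 AKO libraries lay below all 3 controls, which is 48.9% and 44.8% of them. This held for 9.51% of all genes tested. No member lay above all controls, against 7.81% of all genes. By edgeR's quasi-likelihood test with Benjamini-Hochberg adjustment over all genes, 0 of 76 members had an adjusted p under 0.05, as did 0.0122% of all genes in either direction, and the smallest adjusted p of a member was 0.223. At an unadjusted p under 0.05, 18 large and 9 small subunit genes were lower and 0 higher, which is 38.3% and 31.0% against 6.17% of all genes lower and 6.75% higher. Since the tissue was measured in bulk, fewer mitochondria-rich cells and less of these mRNAs per cell cannot be told apart.

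**Figure D1:**
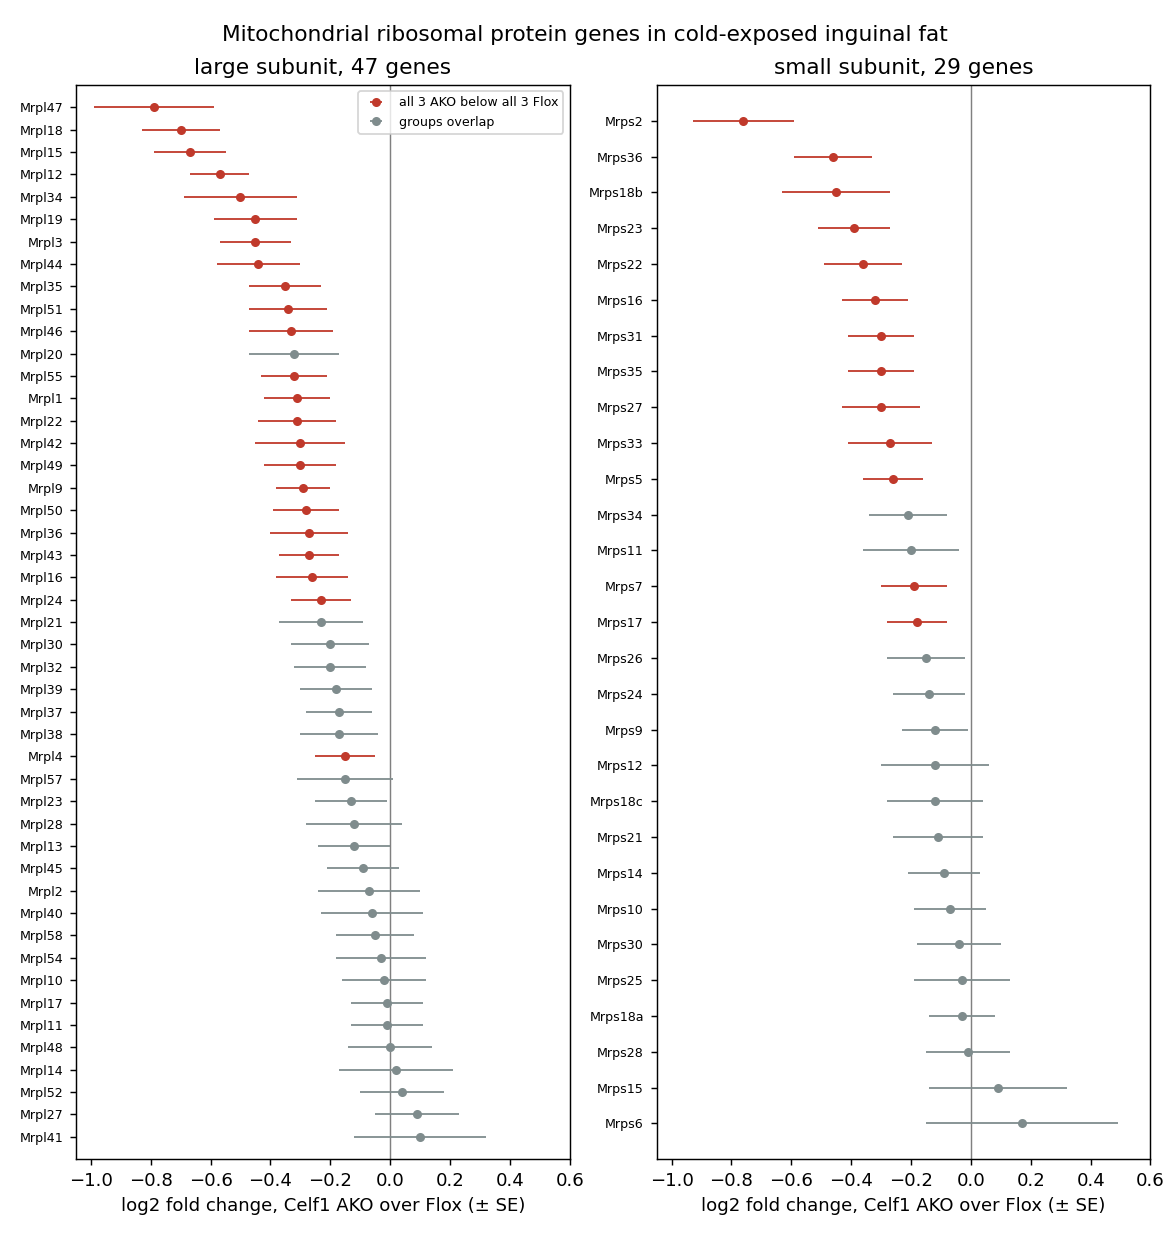
Log2 fold change of each member in Celf1 AKO over Flox control (x axis, bars are standard errors from edgeR), large subunit on the left and small subunit on the right. Red points are the 36 members whose 3 Celf1 AKO libraries all lie below the 3 controls, and grey points are the 40 whose groups overlap. Nearly all points lie left of 0, between -0.79 and 0.17.

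These counts rest on single libraries to different degrees. Leaving out Celf1 AKO replicate 1, the medians were -0.15 and -0.10, and 5 large and 2 small subunit genes were lower at an unadjusted p under 0.05, beside 3.1% of all genes in that fit. Leaving out Flox control replicate 1, the medians were -0.17 and -0.13, 35 of 47 and 23 of 29 genes were negative, and 9 and 4 were lower at that threshold, beside 6.41% of all genes. Without Flox control replicate 2 there were 11 and 4 such genes (3.99% of all genes), and without Flox control replicate 3 there were 12 and 6 (2.64%). Without Celf1 AKO replicate 2 there were 16 and 5 (3.76%), and without Celf1 AKO replicate 3 there were 17 and 10 (12.8%).

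Leaving out Celf1 AKO replicate 3, edgeR called 5 members lower (1.76% of all genes): Mrpl47 (adjusted p = 0.0221), Mrps2 (0.0243), Mrpl15 (0.0281), Mrpl12 (0.0380) and Mrpl3 (0.0392). DESeq2 on all 6 libraries also called 5 lower (0.926% of all genes): Mrpl15 (adjusted p = 0.000754), Mrpl12 (0.00121), Mrpl18 (0.00193), Mrps2 (0.0176) and Mrpl47 (0.0315). Of these, 4 genes (Mrpl12, Mrpl15, Mrpl47 and Mrps2) were called by both fits, which share 5 libraries.

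Mrpl15 (ENSMUSG00000033845; GRCm38 chromosome 1, 4773206 to 4785739, minus strand), a protein of the core of the large subunit, had the smallest p of all members. Its knockout libraries gave 37.0, 32.9 and 41.6 CPM and its controls 60.4, 56.3 and 60.4 CPM. The knockout libraries all lay well below the controls, with a log2 fold change of -0.67 (SE 0.12, edgeR adjusted p = 0.223). Mrpl12 (ENSMUSG00000039640; chromosome 11, 120484613 to 120489065, plus strand) is part of the stalk of the large subunit and also binds the mitochondrial RNA polymerase. It measured 33.2, 34.7 and 36.5 CPM against 54.3, 48.5 and 52.7 CPM. Its libraries were close together within each group, and the log2 fold change was -0.57 (SE 0.10, adjusted p = 0.226). The polymerase gene Polrmt itself was at 19.0, 20.6 and 25.6 CPM against 32.9, 32.1 and 30.6 CPM (log2 fold change -0.55).

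Mrpl18 (ENSMUSG00000057388; chromosome 17, 12911349 to 12916345, minus strand) measured 18.8, 23.9 and 20.8 CPM in the knockout against 32.5, 35.2 and 35.3 CPM. The highest knockout library stayed below the lowest control, and the log2 fold change was -0.70 (SE 0.13, edgeR adjusted p = 0.227). Mrpl47 (ENSMUSG00000037531; chromosome 3, 32725397 to 32737605, minus strand) lies near the mouth of the exit tunnel. It was at 15.9, 16.0 and 25.3 CPM against 34.1, 29.7 and 35.1 CPM, the lowest fold change of any member at -0.79 (SE 0.20, adjusted p = 0.252). Celf1 AKO replicate 3 lay between the other 2 knockout libraries and the controls. Mrpl3, which reaches towards the peptidyl transferase centre, likewise had replicate 3 as its highest knockout library, at 42.5, 41.4 and 51.4 CPM against 61.7, 60.1 and 63.3 CPM. Mrpl44, a protein with an RNase III-like fold, was at 13.8, 15.9 and 17.8 CPM against 21, 22.1 and 21.2 CPM (log2 fold change -0.44).

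Mrps2 (ENSMUSG00000035772; chromosome 2, 28468066 to 28471178, plus strand), of the universally conserved core of the small subunit, stood furthest from the controls among the small subunit genes. Its knockout values were 29.4, 29.6 and 43.4 CPM beside 56.7, 52.8 and 63.9 CPM, a log2 fold change of -0.76 (SE 0.17, edgeR adjusted p = 0.246). Here too Celf1 AKO replicate 3 was the knockout library nearest the controls. Mrps36, which despite its symbol is an adaptor subunit of the 2-oxoglutarate dehydrogenase complex of the tricarboxylic acid cycle, was at 15.9, 16.2 and 14.8 CPM against 23.7, 20.3 and 20.7 CPM. Its knockout libraries were alike, and the log2 fold change was -0.46 (SE 0.13, adjusted p = 0.262). Mrps23, a protein of the mitochondrial small subunit with no bacterial counterpart, was at 49.0, 52.5 and 56.6 CPM against 77.5, 66.3 and 63.4 CPM, with Flox control replicate 1 the highest. Mrps31 (log2 fold change -0.30), Mrps16 (-0.32) and Mrps35 (-0.30) made up the 6 small subunit genes of smallest p, each without overlap and each at 79.9% to 81.5% of control.

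**Figure D2:**
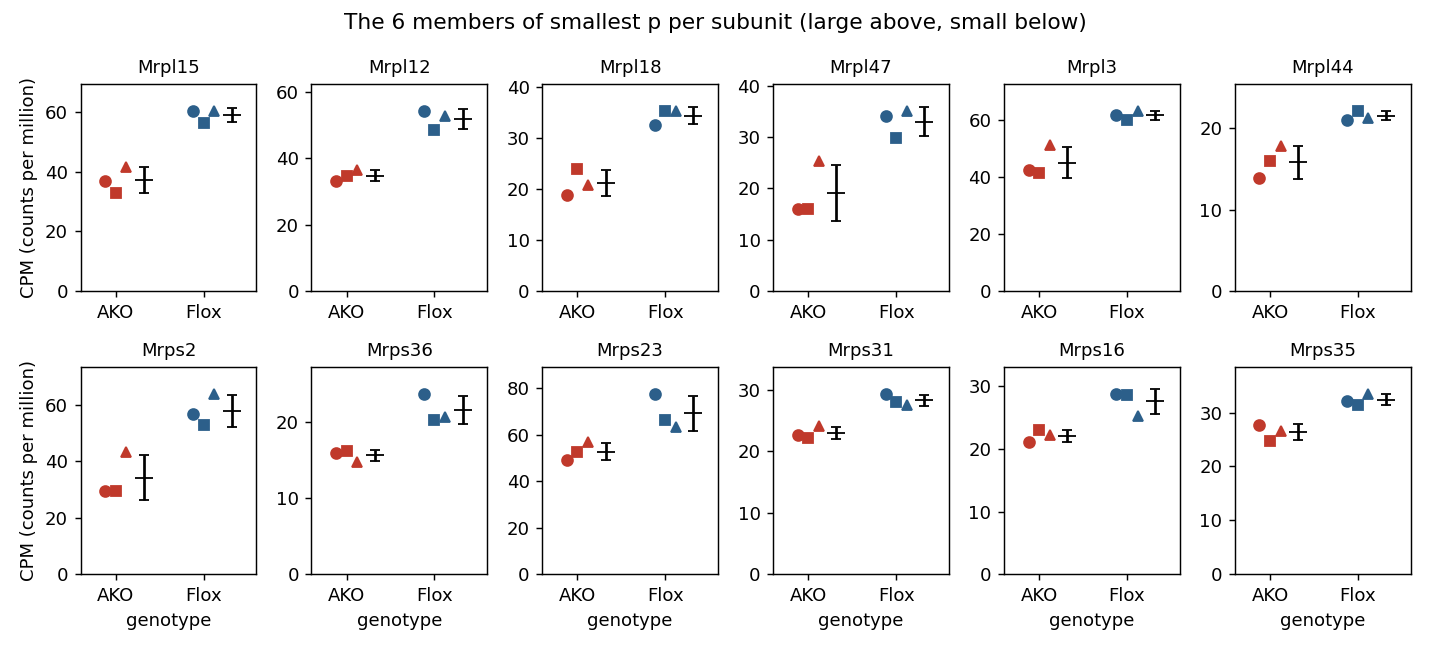
CPM (y axis, from 0) of the 6 members of smallest p in each subunit, large above and small below. Circles, squares and triangles are replicates 1, 2 and 3 of Celf1 AKO (red) and Flox control (blue), and black marks are means with SDs over 3 libraries. In Mrpl47, Mrpl3 and Mrps2 the triangle of Celf1 AKO replicate 3 lies above the other 2 knockout libraries.

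Some genes of both subunits lay close to the control level, and others listed by role lay between these and the leading genes. Within 0.1 of 0 on the log2 scale were 13 large and 7 small subunit genes. Mrpl11, of the base of the stalk beside Mrpl12, measured 44.0, 47.1 and 38.5 CPM in the knockout beside 48.0, 42.2 and 40.5 CPM. Its groups overlapped, with a log2 fold change of -0.01 (SE 0.12) that turned positive under some settings. Mrpl45, which lies at the exit tunnel against the inner membrane, had -0.09 (SE 0.12), and Mrpl58, a peptide release factor built into the large subunit, had -0.05 (SE 0.13). Mrps12, of the decoding site, had -0.12 (SE 0.18), and Mrps34 had -0.21 (SE 0.13). Mrps27, a pentatricopeptide repeat protein, was at 13.2, 12.8 and 14.9 CPM against 16.7, 17.2 and 16.5 CPM, a narrow gap without overlap (log2 fold change -0.30, SE 0.13).

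The positive values reached 0.17 at most, and those of Mrps6, Mrps15 and Mrpl41 came with wide spread. Mrps6 measured 27.5, 47.7 and 18.2 CPM in the knockout beside 27.3, 31.6 and 24.4 CPM, so the knockout libraries held both the highest and the lowest value. Mrps15 was at 47.5, 54.6 and 29.5 CPM against 47.9, 39.1 and 36.6 CPM. Their log2 fold changes of 0.17 (SE 0.32) and 0.09 (SE 0.23) were smaller than their errors, and both were negative without Celf1 AKO replicate 2 (-0.28 and -0.10). In the large subunit, Mrpl27 had 0.09 (SE 0.14) and Mrpl41 had 0.10 (SE 0.22), the latter again highest in Celf1 AKO replicate 2, at 45.7 CPM, and negative without it (-0.12).

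The Mrps18 paralogs, which share an ancestor with a bacterial small subunit protein, did not lie together. Mrps18b measured 14.6, 13.7 and 20.2 CPM in the knockout against 24.5, 20.9 and 20.8 CPM (log2 fold change -0.45, SE 0.18), with Celf1 AKO replicate 3 just below the controls. Mrps18c had -0.12 (SE 0.16) and Mrps18a -0.03 (SE 0.11), both with overlapping groups. The difference between paralogs was not tested. The protein of Mrps18a sits in the large subunit of the assembled ribosome, as does that of Mrps30 (log2 fold change -0.04, SE 0.14). Counting these 2 genes with the large subunit and leaving out Mrps36 gave medians of -0.20 (49 genes) and -0.18 (26 genes).

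Per length, members differed more among themselves than between the groups. On the deposited FPKM scale (fragments per length of transcript and per sequenced total), means over the 6 libraries ran from 3.70 (Mrpl19) to 65.2 (Mrpl20) in the large subunit, with a median of 23.4. In the small subunit they ran from 3.32 (Mrps25) to 57.2 (Mrps21), with a median of 18.4. Mrpl20 measured 57.9 ± 7.32 FPKM in Celf1 AKO and 72.5 ± 5.95 FPKM in Flox control (SD, n = 3 each), and Mrpl42, the next in level, at 57.1 ± 4.86 against 70.8 ± 5.88 FPKM. These 2 levels lay within each other's spread. Mrps21 was at 54.7 ± 5.66 against 59.7 ± 3.92 FPKM and Mrps18c at 44.3 ± 2.30 against 48.4 ± 6.70 FPKM, and Mrps21 was above Mrps18c in all 6 libraries. Within groups, the median coefficient of variation of a member's CPM was 9.90% in Celf1 AKO and 7.90% in Flox control for the large subunit. For the small subunit it was 8.47% and 8.96%. In 4 large and 6 small subunit genes the coefficient exceeded 20% in at least 1 group.

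The subunits had nearly the same levels from library to library. As the mean log2(CPM + 0.5) of the members, relative to the mean of the 6 libraries, the large subunit lay at -0.18, -0.03 and -0.14 in the knockout libraries, beside 0.23, 0.08 and 0.04 for the controls. The small subunit lay at -0.15, -0.01 and -0.15 against 0.19, 0.09 and 0.02. Neither overlapped between the groups, and Celf1 AKO replicate 2 and Flox control replicate 3 lay closest to each other. The difference of large minus small subunit stayed between -0.03 and 0.035 in all 6 libraries.

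Flox control replicate 1 was the highest library for 49 of the 76 members, and the lowest for 0. Celf1 AKO replicate 1 was the lowest for 32 and Celf1 AKO replicate 3 for 27, while within the knockout group replicate 2 was the highest for 48. Members differed in which libraries were low. In Mrpl15, Mrpl47, Mrpl3, Mrpl19, Mrps2 and Mrps18b, Celf1 AKO replicates 1 and 2 were lowest. In genes near the control level, such as Mrpl14, Mrpl41, Mrps6 and Mrps15, Celf1 AKO replicate 2 and Flox control replicate 1 or 2 were high and Celf1 AKO replicate 3 was lowest or nearly so. These genes were picked after their values were seen. Flox control replicate 1 also differed by gene length: over 9240 genes, its deviation from the gene mean had a Spearman correlation of -0.30 with the length implied by the FPKM values, so shorter genes were higher in it. In the other libraries this ran from -0.09 to 0.16, and over the 76 members it was -0.11, -0.25 and 0.24 in the knockout libraries and -0.13, 0.14 and 0.23 in the controls. The median length was 1418 bases for members and 3304 bases for those 9240 genes. The log2 fold change itself had a Spearman correlation with length of -0.12 over the 76 members and 0.05 over the 9240 genes. The part of length in the members' fold changes was not tested.

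**Figure D3:**
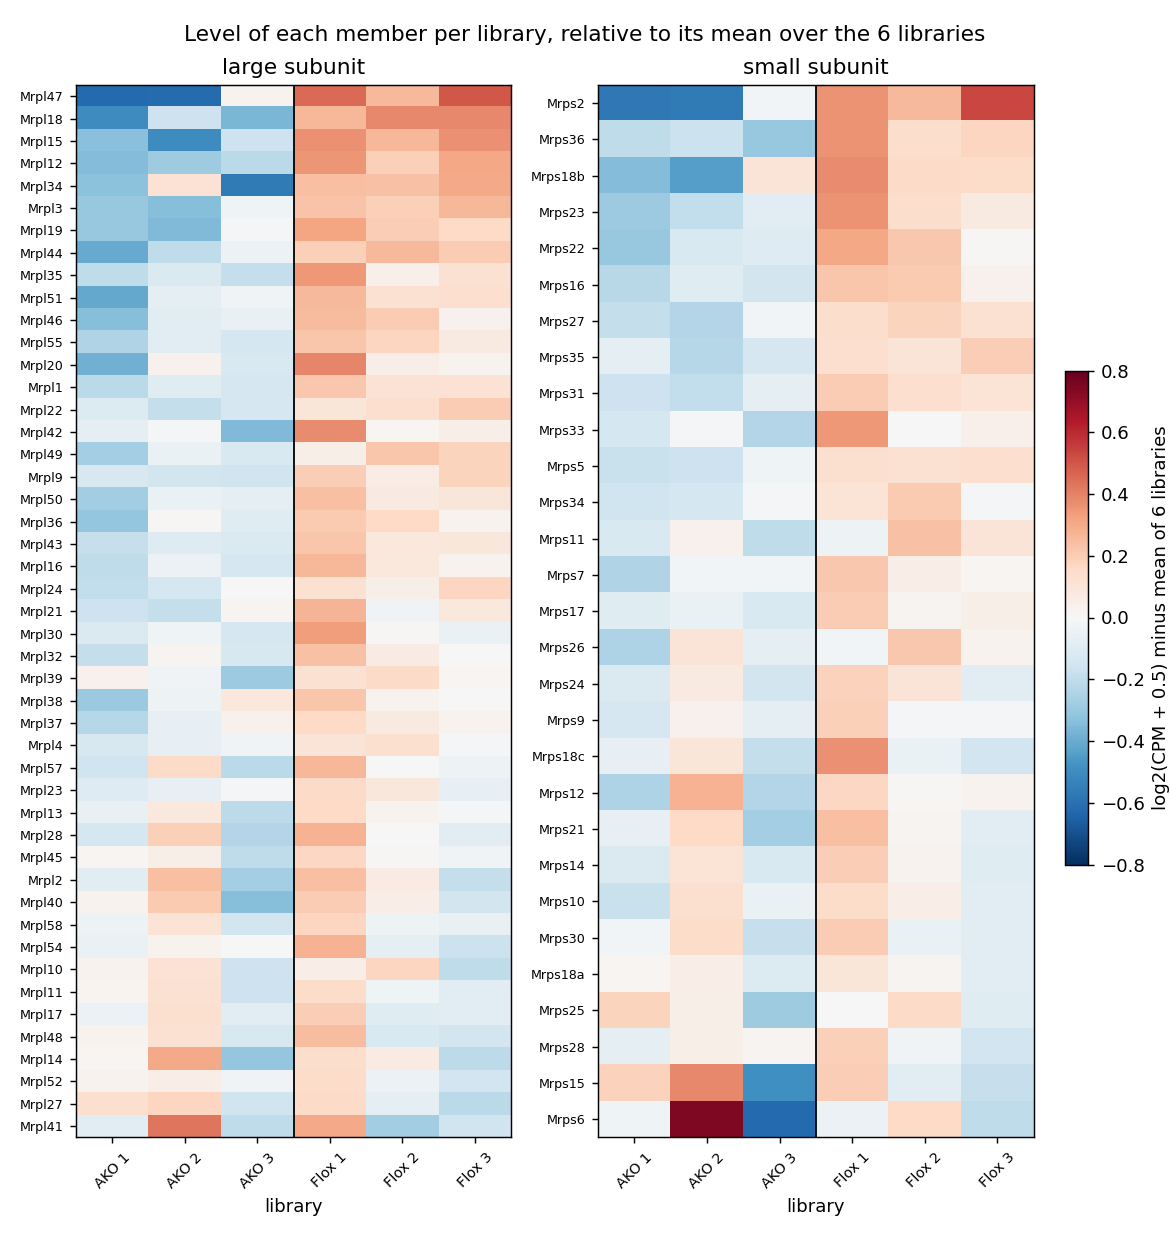
Level of each member (rows, ordered by fold change) in each library (columns), as log2(CPM + 0.5) minus the row mean, with blue below and red above it. Flox 1 is red in most rows, and in the lower rows AKO 2 is red and AKO 3 blue.

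Stretches of promoter are shown because the letters CCGGAAG occur, on either strand, both in members that were lower and in members near the control level. Promoter windows of 300 bases (250 before to 50 after the start, RefSeq, GRCm38.p6) matched 67 of the 76 members by symbol. The motif CCGGAAG, the core bound by ETS-family factors such as GABP, was found on either strand in 24 of 67 (35.8%), against 18.3% of 11566 tested genes with a window and 9.93% of all 27025. The NRF1 core GCGCATGC was in 7 (10.4%, against 5.46% of tested genes and 3.05% of all), and the YY1 core AAGATGGCG in 8 (11.9%, against 3.20% and 1.64%). The E-box CACGTG, whose strands read alike, was in 5 (7.46%, against 11.2% and 8.09%), and TATAAA in 5 (7.46%, against 9.12% and 15.7%). None of these motifs holds another. CCGGAAG was in 10 of the 24 members with a window that were lower at an unadjusted p under 0.05 and in 14 of the other 43. For the NRF1 core these counts were 3 and 4, for the YY1 core 1 and 7, for CACGTG 0 and 5, and for TATAAA 1 and 4. The differences in these counts were not tested. A match is a description of the letters and does not show that a factor binds.

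The stretches below end at the base before the start, 5′ to 3′ on the gene's strand, with the ETS and NRF1 letters in capitals. Lower in all 3 Celf1 AKO libraries were Mrpl3 (chr9:105053208-105053267, plus strand, log2 fold change -0.45), Mrps22 (chr9:98601680-98601739, minus strand, -0.36), Mrpl22 (chr11:58171599-58171663, plus strand, -0.31) and Mrps27 (chr13:99344726-99344785, plus strand, -0.30). Mrps22 and Mrpl22 were picked after their values were seen. Near the control level were Mrps18a (chr17:46110944-46111003, plus strand, -0.03), Mrpl58 (chr11:115403692-115403751, plus strand, -0.05) and Mrpl27 (chr11:94653724-94653790, plus strand, 0.09).
Mrpl3: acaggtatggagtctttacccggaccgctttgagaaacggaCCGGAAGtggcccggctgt
Mrps22: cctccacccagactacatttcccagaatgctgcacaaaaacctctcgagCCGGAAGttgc
Mrpl22: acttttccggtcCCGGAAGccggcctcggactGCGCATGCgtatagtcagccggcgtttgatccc
Mrps27: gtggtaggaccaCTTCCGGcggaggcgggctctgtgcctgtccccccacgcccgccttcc
Mrps18a: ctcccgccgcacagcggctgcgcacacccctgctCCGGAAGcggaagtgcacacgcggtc
Mrpl58: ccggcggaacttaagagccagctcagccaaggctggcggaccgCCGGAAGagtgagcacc
Mrpl27: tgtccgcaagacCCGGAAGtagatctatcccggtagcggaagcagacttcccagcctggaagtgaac

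Genes with other roles in mitochondrial gene expression also had mostly negative fold changes. By edgeR 0 of them passed over all genes; at an unadjusted p under 0.05 there were 10 lower among the translation factors, 5 in transcription, 6 synthetases and 8 assembly factors, beside 6.17% of all genes. DESeq2 called 2, 2, 0 and 0 of these lower, beside 0.926% of all genes. These counts at an unadjusted p changed with single libraries: without Celf1 AKO replicate 1 they were 4, 2, 0 and 2, and without Celf1 AKO replicate 3 they were 8, 11, 6 and 13, beside 3.1% and 12.8% of all genes. Of 16 translation factors and mRNA-binding or insertion proteins, 16 had a negative log2 fold change (median -0.33), and 10 (62.5%) lay lower without overlap, beside 9.51% of all genes. Lrpprc, which stabilizes mitochondrial mRNAs, was at 57.1, 60.2 and 71.6 CPM against 95.7, 86.5 and 105 CPM (log2 fold change -0.60), and Taco1, an activator of Cox1 translation, at 8.37, 8.92 and 11 CPM against 14.8, 15.6 and 18.6 CPM (-0.80). Of 11 genes of mitochondrial transcription and DNA maintenance, 11 were negative (median -0.55) and 5 did not overlap, with the smallest p for Polrmt and its elongation factor Tefm (-0.42). Of 20 mitochondrial aminoacyl-tRNA synthetase and amidotransferase genes, 19 were negative (median -0.19) and 9 did not overlap, with the smallest p for Qrsl1 (-0.66) and Hars2 (-0.41). Of 25 assembly and rRNA modification factors, 20 were negative (median -0.24) and 8 did not overlap, with the smallest p for Mterf4 (-0.49) and Ybey (-0.83).

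Ribosomal proteins of the mitochondrion that carry other symbols numbered 5, and all 5 were negative (median -0.12). Without Celf1 AKO replicate 1 the median was -0.02 with 3 negative, and without Flox control replicate 1 it was -0.09 with 4 negative. Leaving out Celf1 AKO replicate 2 gave -0.22, and leaving out Flox control replicate 3 gave -0.20. Ptcd3, of the small subunit, was at 42.4, 42.8 and 57.7 CPM in the knockout beside 71.2, 64.2 and 70.7 CPM. As in Mrps2, replicate 3 was the knockout library nearest the controls, with a log2 fold change of -0.53 (SE 0.14, edgeR adjusted p = 0.262). Dap3, of the same subunit, had -0.12.

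Other ribosomal and mitochondrial families gave other counts. Cytosolic ribosomal protein genes, taken by symbol only and so including like-named genes, numbered 81, of which 69 were negative (median -0.06). Of these 81, 3 (3.70%) lay lower without overlap, beside 9.51% of all genes. Without Flox control replicate 1, 39 of the 81 were negative and the median was 0.00, and without Celf1 AKO replicate 2 these were 47 and 0.00. Rpl7l1 (log2 fold change -0.44) and Rpl29 (-0.62) had the smallest p among them. Of 83 nuclear genes of the respiratory chain and ATP synthase, 80 were negative (median -0.24), and 28 (33.7%) lay lower without overlap. Cycs, the electron carrier cytochrome c, had -0.66, and Sdhd of complex II had -0.44. Leaving out Flox control replicate 1 moved the median of the respiratory chain genes to -0.09, with 63 of 83 negative, where the medians of the translation factors and of transcription were -0.37 and -0.53. The respiratory chain genes were at 0.36 in Flox control replicate 1 and at 0.01 and -0.04 in the other controls, and at -0.25 in Celf1 AKO replicate 3, their lowest library.

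The mRNAs that this ribosome translates had a median fold change near 0, with a wide spread between libraries of the same group. Lower without overlap among the 13 mitochondrially encoded mRNAs was only mt-Nd3 (-0.49), which is 7.69% of them, beside 9.51% of all genes. Of the 13, 8 were negative and 5 positive, and the median log2 fold change was -0.03. The sign of that median rested on single libraries: it was 0.08 without Flox control replicate 1 (5 negative), 0.05 without Celf1 AKO replicate 1 (4 negative), 0.03 without Celf1 AKO replicate 3 (6 negative), and -0.11 to -0.10 on leaving out each of the others. mt-Co3 was at 151, 231 and 214 CPM against 393, 311 and 148 CPM, so its groups overlapped. The mean level of the 13 was highest in Flox control replicate 1 (0.35) and lowest in Celf1 AKO replicate 1 (-0.22). Among the other 4 libraries the order was reversed. Celf1 AKO replicates 2 and 3 (0.11 and -0.04) lay above Flox control replicates 2 and 3 (-0.13 and -0.07). The SD of that level over 3 libraries was 0.17 in Celf1 AKO and 0.26 in Flox control, so a small shift could not be seen. The differences between families were not tested.

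**Figure D4:**
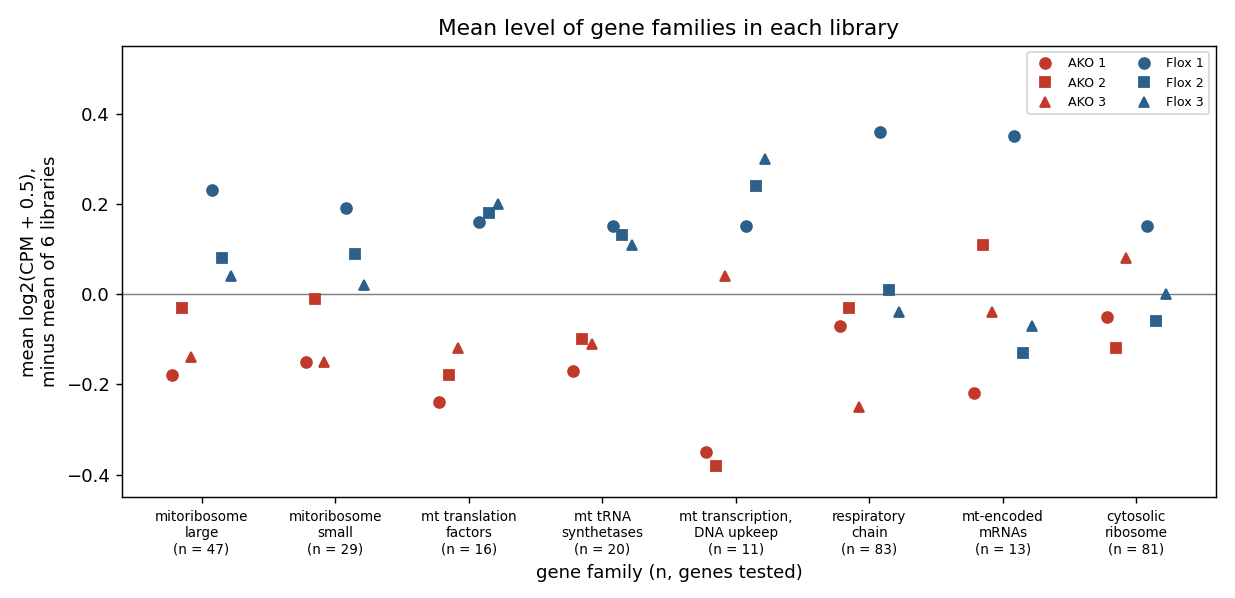
Mean log2(CPM + 0.5) of 8 gene families in each library, minus the mean of the 6 libraries (y axis). Red symbols are Celf1 AKO and blue symbols Flox control, with circles, squares and triangles for replicates 1 to 3. Both subunits separate by group with Flox 1 highest (0.23 and 0.19), while cytosolic ribosome and mitochondrially encoded genes overlap.

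**Figure D5:**
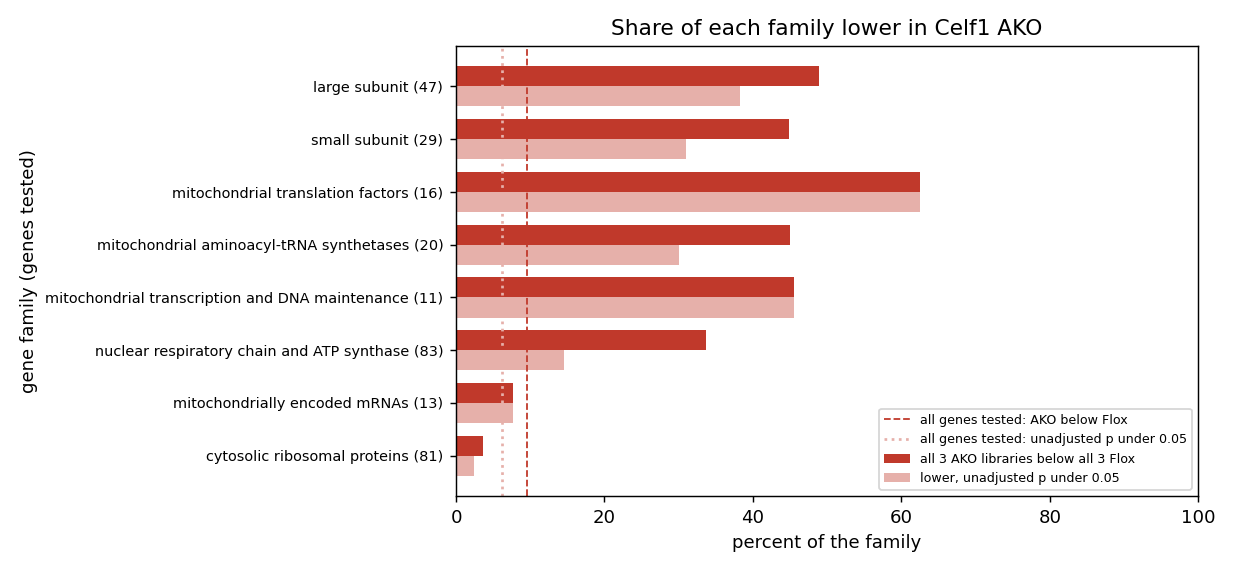
Percent of each family (x axis) that lay lower in Celf1 AKO without overlap (dark bars) and at an unadjusted p under 0.05 by edgeR (light bars), with the same over all genes tested as vertical lines at 9.51% and 6.17%. The large and small subunit bars reach 48.9% and 44.8%, and the cytosolic ribosome bar 3.70%.

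Exons of 28 members overlap those of another gene in the table, and the strand setting of the counting is not given, so reads there may be shared. The largest overlaps are with genes on the opposite strand: 69.8% of the exonic bases of Mrps25 with Nr2c2, 63.4% of Mrps34 with Mapk8ip3, 36.0% of Mrpl19 with Gcfc2 and 33.4% of Mrpl43 with Twnk, the mitochondrial DNA helicase. Next came 30.5% of Mrps18b with Gm16279, 26.3% of Mrpl24 with Rrnad1 and 24.2% of Mrps27 with 6430562O15Rik. Mrps25 had a log2 fold change of -0.03 beside -0.67 for Nr2c2. Mrps34 had -0.21 beside -0.17 for Mapk8ip3, which was more abundant (mean 74.8 against 84.1 CPM, where Mrps34 had 17.0 against 19.7 CPM). Mrpl19 had -0.45 beside -0.58 for Gcfc2, Mrpl43 -0.27 beside -0.67 for Twnk and Mrpl24 -0.23 beside -0.52 for Rrnad1. Mrps18b had -0.45 beside -0.06 for Gm16279, and Mrps27 -0.30 beside 0.28 for 6430562O15Rik. The values of these members are uncertain for that reason. The members Mrpl46 (-0.33) and Mrps11 (-0.20) lie on opposite strands and share 173 exonic bases, and Mrpl47 shares 616 bases with Ndufb5 of complex I (-0.40) and 452 with Actl6a (-0.14).

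Among the leading genes, Mrpl12 shares 200 exonic bases with Gm16755, which averaged 0.475 CPM in the knockout and 0.720 CPM in the controls. Mrpl18 shares 141 bases with the chaperonin gene Tcp1 (log2 fold change -0.28, mean 164 against 199 CPM), Mrpl3 shares 248 with Gm38077, and Mrpl44 shares 126 with Wdfy1, which went the other way (0.67). Mrpl15 and Mrps2 overlap no other gene of the table. Mrps6, the member of highest fold change (0.17), shares 159 bases with Slc5a3 on the same strand (0.24). Mrpl27 (0.09) shares 75 with Eme1 (-0.05), and Mrpl58 (-0.05) shares 2 with Ict1os. The remaining members with an overlap had log2 fold changes of -0.34 (Mrpl51), -0.30 (Mrpl49), -0.29 (Mrpl9), -0.27 (Mrpl36), -0.23 (Mrpl21), -0.12 (Mrpl13), 0.02 (Mrpl14) and 0.00 (Mrpl48) in the large subunit. In the small subunit these were -0.19 (Mrps7), -0.15 (Mrps26) and -0.14 (Mrps24). Among the 48 members with no exon overlap, 26 of 28 large and 19 of 20 small subunit genes were negative, with medians of -0.17 and -0.15, and 10 of 28 (35.7%) and 10 of 20 lay lower without overlap, beside 9.51% of all genes. Without Flox control replicate 1 these members gave 20 and 15 negative values and medians of -0.11 and -0.10, and the large subunit genes at an unadjusted p under 0.05 numbered 1 in place of 7. Without Celf1 AKO replicate 1 that count was also 1, with medians of -0.09 and -0.11. Of the pseudogenes Mrpl23-ps1 and Mrpl48-ps, near-copies of members in the table, neither exceeded 67 counts in a library.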

How the data were processed

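The deposited tables hold raw gene-level counts (whole numbers) and, for the same 16627 genes, FPKM values computed by the authors, each with 1 column per library per the file headers. Per the submitters' processing notes, HISAT2, RSEM 1.3.1 and the builds GRCm38 and mm10 were used, with no role given. No source used here gives the annotation or the strand setting. Of the gene identifiers, 16528 matched the GENCODE annotation of GRCm38, which gave symbols, coordinates and biotypes, and 99 did not. The members and gene lists were chosen with earlier results of these data known.

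The counts were tested with edgeR 4.0.16 (R 4.3.3, quasi-likelihood, robust, TMM, default filter: 16366 genes tested, 261 removed) with genotype as the only term, called at a Benjamini-Hochberg adjusted p under 0.05 over all genes. The procedure was tested on simulated data. A standard error is the log2 fold change over the root of F. CPM is scaled by TMM factors, and 1 CPM was 54.9 to 67.8 counts per library. No 2 libraries agreed within sampling noise (chi-square per degree of freedom at least 48.4). Named members were, per subunit, the 6 of smallest p, 2 of the other sign and the 2 highest and 1 lowest in FPKM, then 15 members listed by role and those with overlapping exons. Other genes are said to be picked after their values were seen or stand as comparisons. From each list the 2 of smallest p were named. Alternatives were other normalizations and filters, DESeq2 1.42.0, limma 3.58.1 on voom weights and on log2(FPKM + 1) and log2(FPKM + 0.1), a replicate block, and leaving out libraries.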

Additional observations from a re-analysis of the deposited data

How the results depend on the processing

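All medians of both subunits stayed negative in every alternative run. Leaving out 1 library they ran from -0.26 to -0.15 (large) and from -0.24 to -0.10 (small). The negative members numbered 35 to 45 of 47 (large) and 23 to 29 of 29 (small) leaving out 1 library. With limma-voom with quality weights they numbered 35 and 22. The members called numbered 0 under every alternative but DESeq2 (5) and edgeR leaving out 1 library (0 to 5). Over all genes, 2 were called by edgeR, 496 by DESeq2, 10 by limma-voom with quality weights, 1 with log2(FPKM + 1) without a minimum, 12 with the replicate block, 0 with library-size scaling, limma-voom, log2(FPKM + 1) or log2(FPKM + 0.1), and 0 to 527 leaving out 1 library. Members lower at an unadjusted p under 0.05 ran from 5 to 17 (large) and from 2 to 10 (small) leaving out 1 library. Leaving out 2 libraries, Celf1 AKO replicate 2 and Flox control replicate 1, an alternative added after seeing the data because their deviations were most alike (correlation 0.299), these were 4 and 2 and 0 genes were called. Among the large subunit genes without exon overlap, also added after seeing the data and fewer in number, 26 were negative, 7 lower at that threshold and 10 lower without overlap.

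Deviations from the group means correlated at 0.071, -0.008 and 0.273 between same-numbered libraries. Between differently numbered libraries they correlated at -0.352 to 0.299. With 3 libraries per group, these values do not settle whether the libraries were paired. With the replicate number as a block, 0 members were called, as without it.

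Of 874 alternative values of 46 named members, 40 changed sign, all in 12 members within 0.17 of 0, and 10 passed the threshold. Mrpl11 was at 0.01 with RLE, DESeq2 and without those 2 libraries, 0.00 with upper-quartile scaling and with the filter of 1 CPM in 3 libraries, and 0.07 with quality weights. With quality weights Mrpl58 was at 0.03, Mrps18a 0.01, Mrps18c 0.00, Mrps25 0.01 and Mrps30 0.06. Mrpl14 was at -0.01 in the 3 FPKM fits, and without those 2 libraries Mrpl14 was at -0.06, Mrps18a at 0.00 and Mrps6 at -0.28. Leaving out 1 library, the ranges were -0.08 to 0.06 (Mrpl11), -0.15 to 0.16 (Mrpl14), -0.12 to 0.29 (Mrpl41), -0.07 to 0.14 (Mrpl48), -0.12 to 0.03 (Mrpl58), -0.32 to 0.01 (Mrps12), -0.10 to 0.31 (Mrps15), -0.07 to 0.02 (Mrps18a), -0.23 to 0.05 (Mrps18c), -0.10 to 0.09 (Mrps25), -0.13 to 0.06 (Mrps30) and -0.28 to 0.43 (Mrps6). The causes were not tested. The protein identity of the Mrps18 paralogs, which had been planned, was not run. The lowest count of a member in a library was 565, so counting error is part of the spread between libraries for the least abundant members. Leaving out 1 library, an alternative added later for the other gene lists, the medians of the mitochondrially encoded mRNAs ran from -0.11 to 0.08 and those of the cytosolic ribosomal proteins from -0.13 to 0.00.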
